A study of Bubalus bubalis with 36 samples.

Results

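The insulin-like growth factor (IGF) system was described in buffalo fat through 10 genes listed by symbol: the ligands IGF1 and IGF2, the receptor IGF1R, the binding proteins IGFBP2 to IGFBP7 and the protease PAPPA. Of these 10, 9 were found in the table of 23032 gene models, each with 1 gene model. IGFBP6 was matched to no row by its symbol and was not analysed here. All 9 were detected in every library and passed the filter on low values, so 9 of 9 were tested.

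RNA was sequenced from 6 adipose depots of 6 river buffaloes, which gave 36 libraries, 1 for each depot and animal. BSAT, SSAT and IAT denote the subcutaneous adipose tissues (SATs) of the back, the sternum and the groin, and OAT, PCAT and PRAT denote the visceral adipose tissues (VATs) of the omentum, around the heart and around the kidney, with 18 libraries per class. Animals 1 to 3 were Murrah males of 19, 20 and 21 months, and animals 4 to 6 were Nili-Ravi females of 20, 20 and 21 months. Sex and breed coincided and cannot be told apart, the labels give no treatment of any depot, and each library is named by its depot and animal (OAT 1 is omental fat of animal 1).

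IGF1 and IGF2 are small secreted hormones that signal mainly through IGF1R, a receptor tyrosine kinase close to the insulin receptor. In the circulation and between cells most IGF is held by binding proteins, which set how much ligand reaches the receptor, and proteases such as PAPPA cut some of these proteins and release the ligand. In adipose tissue the system is known for its part in the growth and differentiation of fat cell precursors. IGFBP7 is a more distant relative that binds IGFs weakly.

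Levels are given as FPKM, the authors' fragment level per transcript length and library size. Because transcript length is divided out, levels of different genes were compared. Such comparisons are approximate, since they depend on how complete each gene model is, which was not checked. Column sums of FPKM ranged from 796645 to 911384, and the values were not rescaled for the main tests. The read count behind each value is unknown, since the table holds no counts, and so is its counting error. Markers of adipocytes, among them ADIPOQ and FABP4, were detected in every library, and their summed FPKM lay between 384 in OAT 1 and 12076 in the highest PRAT library. In 6 libraries (OAT 1, PRAT 2, PRAT 4, IAT 4, OAT 4 and PCAT 2) the summed FPKM of 5 B cell markers was 228 to 1988, against at most 98.2 in the other 30. BSAT 1 stood apart in skeletal muscle markers, with a summed FPKM of 1977. Member tests of SATs against VATs and of single depots were also run without the 6 libraries and, separately, without BSAT 1. Both choices were made after seeing the data. Depot pairs, the comparison of sexes, ligand ratios, shares and correlations are given for all libraries only. In bulk tissue, fewer cells of a type and less RNA per cell cannot be told apart.

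The members covered a wide range of levels. IGFBP5 (gene model on chromosome 2 by the names of the authors' assembly) averaged 2922 FPKM and IGF2 (chromosome 5) 2470 FPKM over the 36 libraries, which placed them 20th and 25th of all gene models by mean level. IGFBP7 (chromosome 8, 262 FPKM), IGF1 (chromosome 4, 199 FPKM), IGF1R (chromosome 19, 151 FPKM) and IGFBP3 (chromosome 7, 108 FPKM) followed. IGFBP4 (chromosome 3) averaged 48.1 FPKM. PAPPA (chromosome 3, 3.13 FPKM) and IGFBP2 (chromosome 2, 2.94 FPKM) were the members with the lowest means. IGFBP2 and IGFBP5 are neighbours in this assembly and in the RefSeq annotation of the NDDB_SH_1 assembly, yet their mean levels were at opposite ends of the members. Over the 36 libraries the correlation of these neighbours was 0.10 (Pearson's r on the log2 scale, libraries shared by animal and depot).

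**Figure D1:**
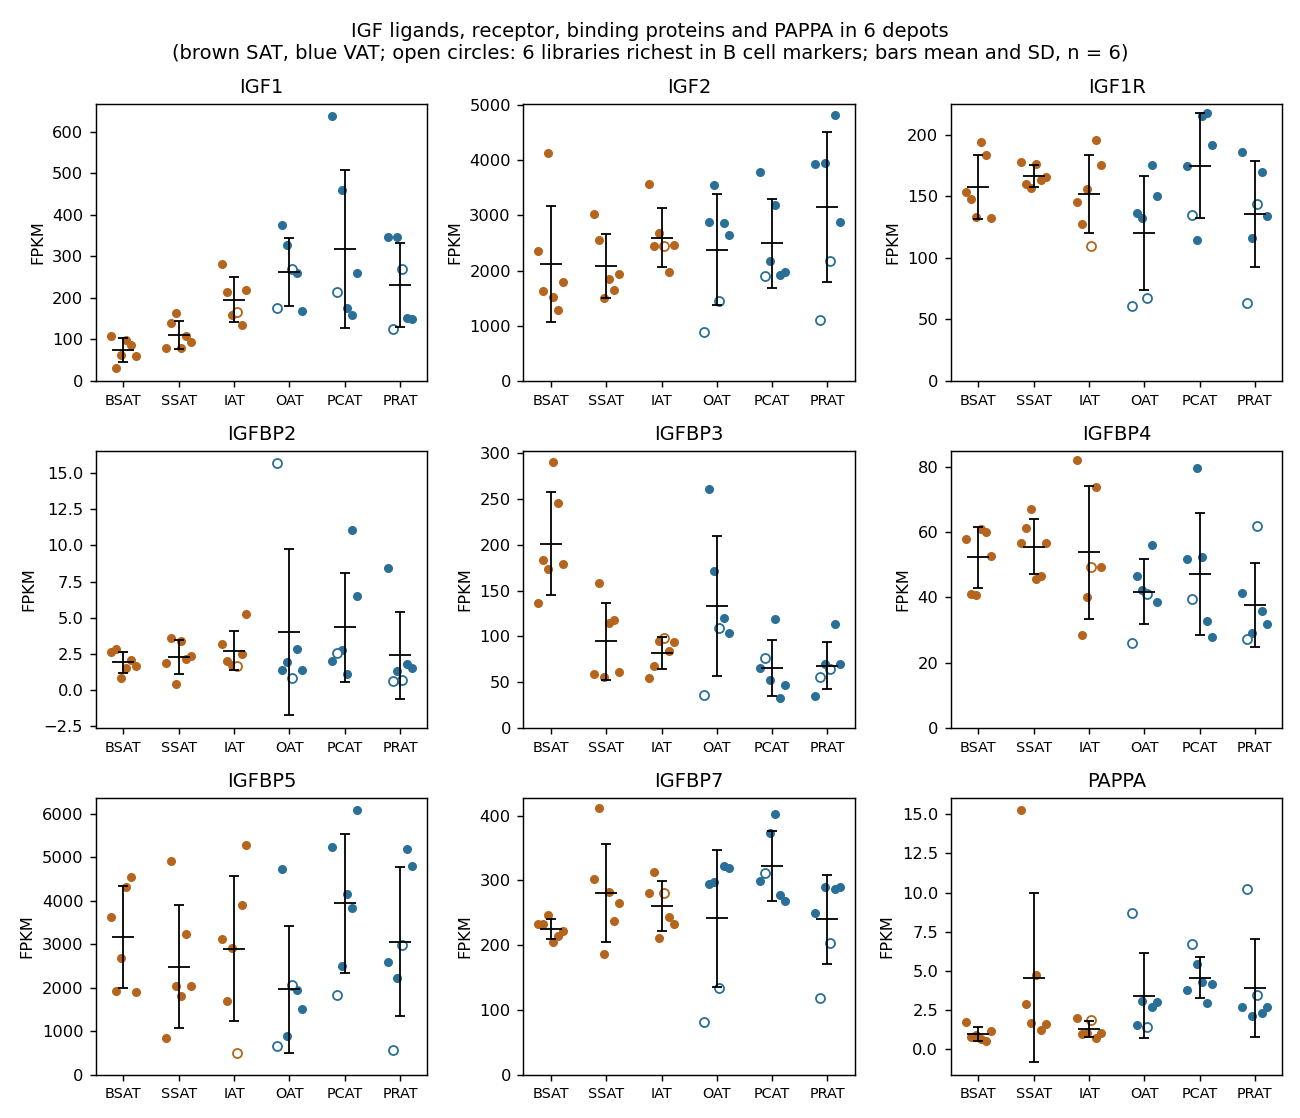
FPKM of each of the 9 members (y axis, linear) in the 6 depots (x axis), with 1 point per library, brown for SATs and blue for VATs, open circles for the 6 libraries richest in B cell markers, and bars for the mean and SD of 6 animals. IGF1 was lowest in BSAT (30.97 to 109 FPKM), IGFBP3 highest there (137 to 290 FPKM), and the values of IGF2, IGF1R and IGFBP5 overlapped between all depots.

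Depots were compared with limma on log2(FPKM + 0.1), fitted over 17688 gene models, and a gene was called where the p adjusted by Benjamini and Hochberg over all of them was under 0.05. Across the 6 depots, 3 of the 9 members differed by limma's F test, beside 21.3% of all gene models tested. These were IGF1 (adjusted p = 0.000151), PAPPA (adjusted p = 0.00287) and IGFBP3 (adjusted p = 0.00444). For the other 6 members the adjusted p was between 0.222 for IGF1R and 0.703 for IGFBP2. The highest depot mean was 4.66 times the lowest for PAPPA, 4.25 times for IGF1 and 3.07 times for IGFBP3, and 1.43 times for IGFBP7, the member whose depot means lay closest together.

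Each depot was also set against the mean of the other 5. Of 54 such tests of members 4 were called. In BSAT 1 member was higher (0.526% of all gene models were) and 2 were lower (1.49%), and in PCAT 1 member was higher (3.26%, with 1.01% of gene models lower and 0 members). In the other depots no member was called, beside 3.90% of gene models higher and 5.23% lower in SSAT, 0.136% and 0.0452% in IAT, 0.334% and 0.447% in OAT, and 7.60% and 3.29% in PRAT.

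IGF1, the growth hormone-dependent ligand, was the member with the smallest adjusted p in the F test across the depots. In BSAT it lay between 30.97 and 109 FPKM (median 74.6), in SSAT between 79.4 and 164 FPKM (median 101) and in IAT between 134 and 282 FPKM (median 190). In OAT it lay between 167 and 374 FPKM (median 264), in PCAT between 158 and 637 FPKM (median 238) and in PRAT between 125 and 346 FPKM (median 211). All 6 BSAT values were below all values of IAT, OAT, PCAT and PRAT, and they overlapped with SSAT. BSAT was the lowest of the 6 depots in 4 animals and SSAT in the remaining 2. The highest depot was PCAT in 3 animals and OAT in the other 3.

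Against the mean of the other 5 depots, IGF1 was lower in BSAT by a log2 difference of -1.51 (SE 0.26, adjusted p = 0.000925, lower in 6 of 6 animals) and higher in PCAT by 0.89 (SE 0.26, adjusted p = 0.0377, higher in 6 of 6 animals). The difference in SSAT was -0.76 with an adjusted p of 0.0557, and it was called once the animal was a term of the fit (adjusted p = 0.0372). In SSAT 8 of 11 fibroblast and progenitor markers were also higher (summed FPKM of 1953 to 4945, against 400.4 to 4115 in the other depots), as were 2 of 9 smooth muscle and pericyte markers, and 2 of 10 mesothelial markers were lower. Their part in the level of IGF1 was not tested. The higher level in PCAT was carried by PCAT 1 (637 FPKM) and PCAT 3 (460 FPKM), beside 158 to 260 FPKM in the other 4 animals. The PCAT call was lost without animal 1 (adjusted p = 0.143), animal 3 (0.132), animal 5 (0.0508) or animal 6 (0.157), and without the 6 libraries rich in B cell markers (0.0615), where the difference was 0.91. Of 10 mesothelial markers 9 were also higher in PCAT, with a summed FPKM of 4.92 to 2453 there, and their part in this result was not tested. The libraries of highest mesothelial level, PCAT 4 (2453) and PCAT 2 (1715), held 175 and 215 FPKM of IGF1. BSAT differed in 1 mesothelial marker, which was lower there, and in no marker of the other 8 cell types. Of all gene models only 0.526% were called higher and 1.49% lower in BSAT, so the lack of marker calls says little about cell content. The part of cell content in the BSAT level of IGF1 was not tested.

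IGF2, the ligand best known from fetal growth, was the more abundant ligand in each of the 36 libraries. Its median was 1711 FPKM in BSAT, 1895 in SSAT, 2456 in IAT, 2760 in OAT, 2072 in PCAT and 3412 in PRAT. The values of every depot overlapped with those of every other, from 892 FPKM in OAT 1 to 4830 FPKM in PRAT 5. No difference between depots was called (F test adjusted p = 0.654). The lowest values, in OAT 1 (892) and PRAT 2 (1107), came from the 2 libraries with the highest B cell marker level. Without the 6 B cell marker-rich libraries, the F test for IGF2 gave an adjusted p of 0.0400, and PRAT was higher than the other depots by a log2 difference of 0.69 (adjusted p = 0.0329). That set leaves out PRAT 2 (1107 FPKM) and PRAT 4 (2182 FPKM), which held the lowest PRAT values of IGF2. In those 30 libraries 6 of 11 fibroblast and progenitor markers and 1 of 9 smooth muscle and pericyte markers were lower in PRAT (8 and 2 in all 36), and 2 of 11 adipocyte markers were higher (0 in all 36). Their part in the change of IGF2 was not tested.

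The gene for the signalling receptor, IGF1R, varied least over the 36 libraries, with a coefficient of variation of 25.0%. Its median was 151 FPKM in BSAT, 165 in SSAT, 151 in IAT, 135 in OAT, 183 in PCAT and 139 in PRAT, and all depots overlapped. The 6 SSAT libraries lay within 157 to 178 FPKM, whereas OAT ranged from 60.7 to 175 FPKM. The 3 lowest values were OAT 1 (60.7), PRAT 2 (63.2) and OAT 4 (67.3), each from a library rich in B cell markers. No depot difference was called for IGF1R.

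IGFBP3, the main carrier of circulating IGF, was highest in back fat. It lay between 137 and 290 FPKM (median 181) in BSAT, between 56.1 and 159 FPKM (median 87.7) in SSAT and between 54.6 and 97.9 FPKM (median 89.1) in IAT. In OAT it lay between 35.6 and 261 FPKM (median 114), in PCAT between 32.8 and 120 FPKM (median 58.9) and in PRAT between 35.3 and 114 FPKM (median 66.9). BSAT was the highest depot in 5 animals, and in animal 2 it was OAT. All 6 BSAT values were above all values of IAT, PCAT and PRAT. BSAT exceeded the mean of the other 5 depots by a log2 difference of 1.30 (SE 0.27, adjusted p = 0.00864, higher in 6 of 6 animals). The call was lost without animal 6 (difference 1.30, adjusted p = 0.0560) and held without the B cell marker-rich libraries (1.23, adjusted p = 0.00473) and without BSAT 1 (1.41, adjusted p = 0.0130).

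PAPPA, the metalloprotease that cuts IGFBP4 and IGFBP5, was low throughout and lowest in BSAT and IAT. It lay between 0.52 and 1.73 FPKM (median 0.88) in BSAT, between 1.24 and 15.3 FPKM (median 2.29) in SSAT and between 0.74 and 1.98 FPKM (median 1.05) in IAT. In OAT it lay between 1.42 and 8.72 FPKM (median 2.88), in PCAT between 2.98 and 6.70 FPKM (median 4.26) and in PRAT between 2.12 and 10.3 FPKM (median 2.71). BSAT was the lowest depot in 5 animals and IAT in animal 6. All BSAT values were below all PCAT and PRAT values, and all IAT values were below all PCAT and PRAT values. Against the mean of the other 5 depots, BSAT was lower by a log2 difference of -1.48 (SE 0.35, adjusted p = 0.0205, lower in 6 of 6 animals). This call held without animal 1 (adjusted p = 0.00739) and was lost without each of the other 5 animals (adjusted p from 0.0514 to 0.0984) and with a pseudocount of 1 (0.0526). In SSAT the mean of 4.57 FPKM rested on SSAT 1 (15.3 FPKM) and SSAT 4 (4.73 FPKM), with the other 4 values at 1.24 to 2.89 FPKM. The high values in OAT 1 (8.72 FPKM) and PRAT 2 (10.3 FPKM) came from libraries rich in B cell markers. PCAT exceeded the other depots in PAPPA by a log2 difference of 1.10, which was not called (adjusted p = 0.0711). It was called with the animal as a term (adjusted p = 0.0300) and without the 6 such libraries (1.12, adjusted p = 0.0438).

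**Figure D2:**
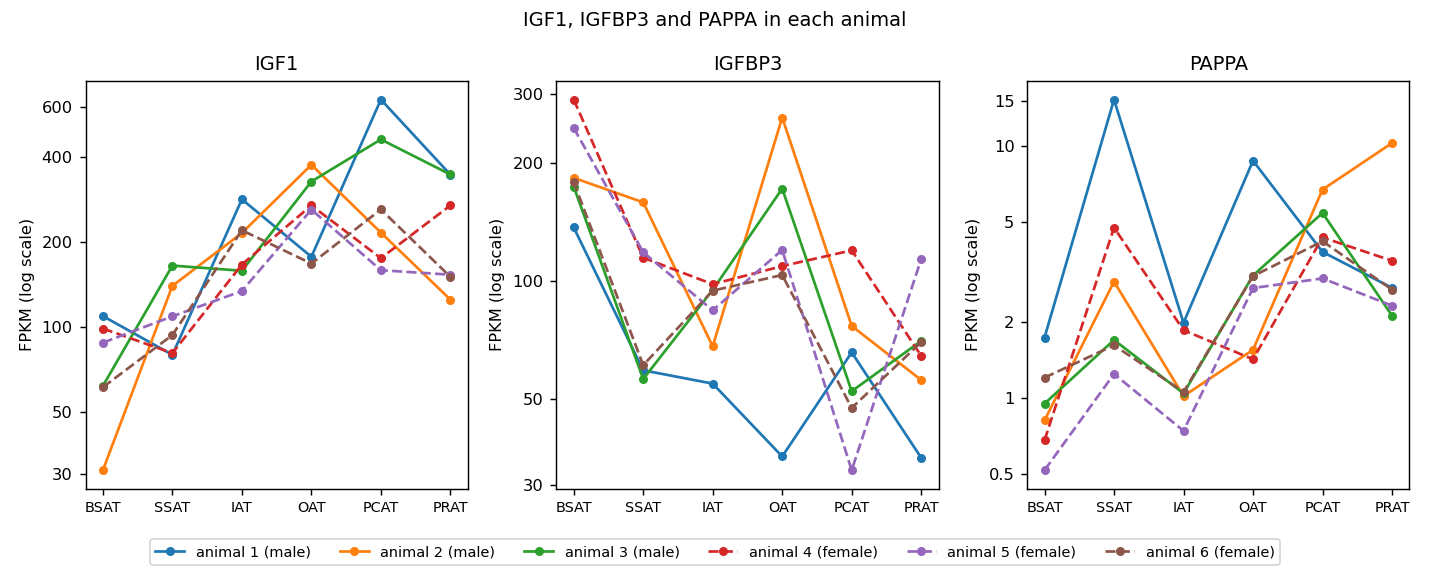
FPKM of IGF1, IGFBP3 and PAPPA (y axes, log scale) in the 6 depots (x axis), with 1 line per animal, solid for the 3 Murrah males and dashed for the 3 Nili-Ravi females. The lines of IGF1 and PAPPA start low in BSAT (IGF1 at most 109 FPKM, PAPPA at most 1.73 FPKM), and those of IGFBP3 start high (at least 137 FPKM).

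The remaining binding proteins showed no called difference among the 6 depots. IGFBP4, a soluble protein that restrains IGF action, had depot medians from 33.7 FPKM in PRAT to 56.6 FPKM in SSAT, and its libraries ranged from 26.1 to 82.1 FPKM. IGFBP5, which also binds the extracellular matrix, had medians from 1728 FPKM in OAT to 3994 FPKM in PCAT. IGFBP5 ranged widely within single depots, for example from 501 to 5279 FPKM in IAT and from 570 to 5196 FPKM in PRAT. The lowest IGFBP5 values, IAT 4 (501), PRAT 2 (570) and OAT 1 (664), were again from libraries rich in B cell markers.

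IGFBP7 had medians from 227 FPKM in BSAT to 305 FPKM in PCAT. The 6 BSAT values (204 to 247 FPKM) lay below the 6 PCAT values (268 to 402 FPKM), and this pair was not called (log2 difference -0.50, SE 0.25, adjusted p = 0.305). IGFBP2 was low in most libraries, with depot medians from 1.41 FPKM in PRAT to 2.66 FPKM in PCAT. Single libraries stood above the rest, namely OAT 1 (15.7 FPKM), PCAT 5 (11.1 FPKM) and PRAT 1 (8.45 FPKM), so that the coefficient of variation of IGFBP2 over the 36 libraries was 104%.

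The 15 pairs of depots gave 12 member calls among 135 tests, 6 for IGF1, 4 for PAPPA and 2 for IGFBP3. Pairs share depots, so these calls are not independent of each other. Most came from BSAT against the visceral depots. Against OAT 2 members were called (5.00% of all gene models), with IGF1 at -1.86 (adjusted p = 0.00102) and PAPPA at -1.52 (adjusted p = 0.0447). Against PCAT 3 members were called (5.68%), with IGF1 at -2.00 (adjusted p = 0.000128), PAPPA at -2.15 (adjusted p = 0.00267) and IGFBP3 at 1.69 (adjusted p = 0.00198). Against PRAT the same 3 members were called (13.3%), with IGF1 at -1.62 (adjusted p = 0.00211), PAPPA at -1.75 (adjusted p = 0.0105) and IGFBP3 at 1.60 (adjusted p = 0.00309). In back fat the ligand IGF1 and the protease PAPPA were thus lower, and the carrier IGFBP3 higher, than in PCAT and PRAT.

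For SSAT, IGF1 alone was called in each visceral pair. The log2 difference was -1.23 against OAT (adjusted p = 0.0144, 13.5% of gene models called), -1.37 against PCAT (adjusted p = 0.00697, 7.94%) and -0.99 against PRAT (adjusted p = 0.0311, 20.9%). IGFBP4 differed by 0.60 between SSAT and PRAT (adjusted p = 0.0685) and was called with the animal as a random term (0.0491) but not as a fixed term (0.0605). For IAT only PAPPA against PCAT was called, at -1.79 (adjusted p = 0.0228, 2.85% of gene models called). No member was called between IAT and OAT (0.950% of gene models) or IAT and PRAT (7.55%). For IAT and PRAT, PAPPA differed by -1.38 (adjusted p = 0.0558), and this was called with the animal as a term (adjusted p = 0.0263).

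Within a fat class no pair gave a member call in the fit without the animal. PAPPA differed by -1.62 between BSAT and SSAT (adjusted p = 0.105), which was called with the animal as a random term (0.0486) but not as a fixed term (0.0524). The share of gene models called was 0.192% for BSAT against SSAT, 0.00565% for BSAT against IAT and 0.102% for SSAT against IAT. It was 1.12% for OAT against PCAT, 0.119% for OAT against PRAT and 3.08% for PCAT against PRAT. IGF1 in BSAT and IAT did not overlap and differed by -1.45, with an unadjusted p of 0.000107 and an adjusted p of 0.135, in the pair with the smallest share of calls among all gene models. When each member's depots were ordered by their mean FPKM, none of the 45 pairs of neighbours in these orders was called. Neighbours were by construction next to each other in mean FPKM, and the tests used log2 values, so this lack of calls says little.

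SATs and VATs were then compared as classes of 18 libraries. IGF1 and PAPPA were lower and IGFBP4 was higher in SATs, so 1 of 9 members was higher in SATs, beside 7.90% of all gene models, and 2 were higher in VATs, beside 22.1%. The median difference of the 9 members was 0.01 on the log2 scale and that of all gene models -0.13. This comparison shares its libraries with the depot comparisons above and adds no independent samples. The fit had no term for the animal and took the depots of each animal as independent libraries. Its SE and p therefore do not measure the spread between animals. With the class means of each animal as pairs, IGF1 and PAPPA stayed called.

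IGF1 lay between 30.97 and 282 FPKM (median 109) in SATs and between 125 and 637 FPKM (median 260) in VATs. The classes overlapped, mainly through IAT. The class means were 127 ± 64.5 and 270 ± 131 FPKM (SD, n = 18 each), a log2 difference of -1.13 (SE 0.23, limma adjusted p = 0.000468), with SATs lower in 6 of 6 animals. PAPPA lay between 0.52 and 15.3 FPKM (median 1.22) in SATs and between 1.42 and 10.3 FPKM (median 3.05) in VATs. Its log2 difference was -1.15 (SE 0.30, adjusted p = 0.00469), with SATs lower in 6 of 6 animals. As the depot values show, BSAT and IAT carried the low SAT values of PAPPA, and SSAT overlapped with all visceral depots.

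IGFBP4, whose protein PAPPA cleaves, ran in the direction opposite to PAPPA. Its mean was 53.9 FPKM in SATs (SD 13.0, n = 18) and 42.3 FPKM in VATs (SD 14.0, n = 18), a log2 difference of 0.37 (SE 0.13, adjusted p = 0.0310), with SATs higher in 6 of 6 animals. The classes overlapped, at 28.4 to 82.1 FPKM in SATs and 26.1 to 79.7 FPKM in VATs. The call was lost without animal 1 (adjusted p = 0.140), animal 5 (0.0908) or animal 6 (0.129), with the class means of each animal as pairs (0.0586) and without the B cell marker-rich libraries (0.0778), where the difference was 0.33.

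IGFBP3 averaged 126 FPKM in SATs (SD 67.5, n = 18) and 89.1 FPKM in VATs (SD 56.7, n = 18) and was higher in SATs in 6 of 6 animals. Its log2 difference of 0.54 (95% interval 0.03 to 1.05, adjusted p = 0.0963) was not called. With the class means of each animal as pairs the adjusted p was 0.0129, and with the depot means in 1 fit 0.0377. The remaining differences were -0.18 for IGF2 (95% interval -0.55 to 0.19), 0.22 for IGF1R (-0.06 to 0.51), -0.15 for IGFBP2 (-0.84 to 0.54), 0.01 for IGFBP5 (-0.62 to 0.64) and 0.01 for IGFBP7 (-0.30 to 0.32). None of these 5 was called.

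**Figure D3:**
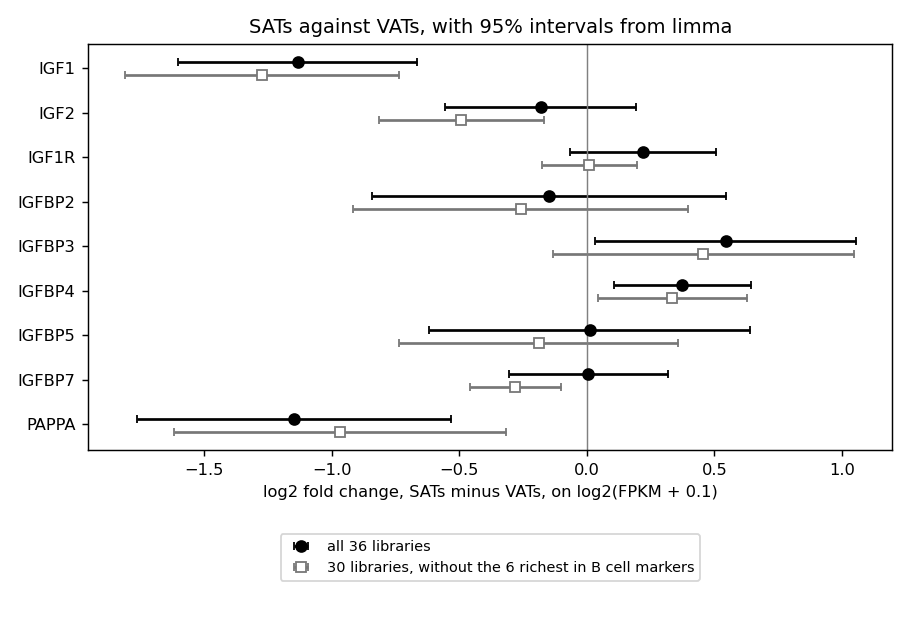
Log2 fold change of each member, SATs minus VATs (x axis, on log2(FPKM + 0.1)), with 95% intervals from limma, for all 36 libraries (filled) and for the 30 libraries without those richest in B cell markers (open). IGF1 and PAPPA stay below 0 in both sets, and IGF2 and IGFBP7 move from -0.18 and 0.01 to -0.49 and -0.28.

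Markers of other cell types moved with the fat class. Of 11 fibroblast and progenitor markers tested, 9 were higher in SATs, with a summed FPKM of 1030 to 4945 in SATs and 400.4 to 2194 in VATs, and none was at 0 in any library. Of 10 mesothelial markers 6 were higher in VATs, with a summed FPKM of 1.11 to 6.41 in SATs and 1.31 to 2453 in VATs. MSLN was listed at 0 in 23 libraries, BNC1 in 20, UPK1B in 22 and CALB2 in 28. The T cell list had 8 of 10 markers higher in VATs, with summed FPKM of 14.4 to 739 in SATs and 11.1 to 2596 in VATs. It had 1 of 10 without the 6 libraries rich in B cell markers and 3 of 10 under quantile normalization. Of 9 smooth muscle and pericyte markers 2 were higher in SATs, and 1 was without the 6 libraries rich in B cell markers. None of the 11 adipocyte, 8 endothelial, 8 macrophage, 5 B cell or 10 skeletal muscle markers tested was called between the classes in all 36 libraries. The part of these markers in the SAT and VAT differences of IGF1, PAPPA and IGFBP4 was not tested.

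Several members moved with the B cell markers. In the 6 libraries rich in them the median of IGF1R was 88.4 FPKM, against 162 FPKM in the other 30, and that of IGFBP7 was 169 against 279 FPKM. IGF2 (1671 against 2502 FPKM) and IGFBP5 (1250 against 3022 FPKM) were also lower there, whereas PAPPA was higher (5.10 against 2.05 FPKM). The medians of IGFBP2 (1.25 against 2.05 FPKM), IGFBP3 (70.4 against 99.0 FPKM) and IGFBP4 (40.2 against 48.0 FPKM) were lower too. That of IGF1 was higher (196 against 158 FPKM). The ranges overlapped for all 9 members, and since 5 of these 6 libraries were visceral, no test was made of this contrast. The summed adipocyte marker level was at its lowest in OAT 1 (384 FPKM), PRAT 4 (389 FPKM) and OAT 4 (623 FPKM), which are among the 6. PRAT 2 (2065 FPKM), IAT 4 (2545 FPKM) and PCAT 2 (3159 FPKM), also among the 6, were higher. They lay above PCAT 4 (841 FPKM), which is not among the 6.

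**Figure D4:**
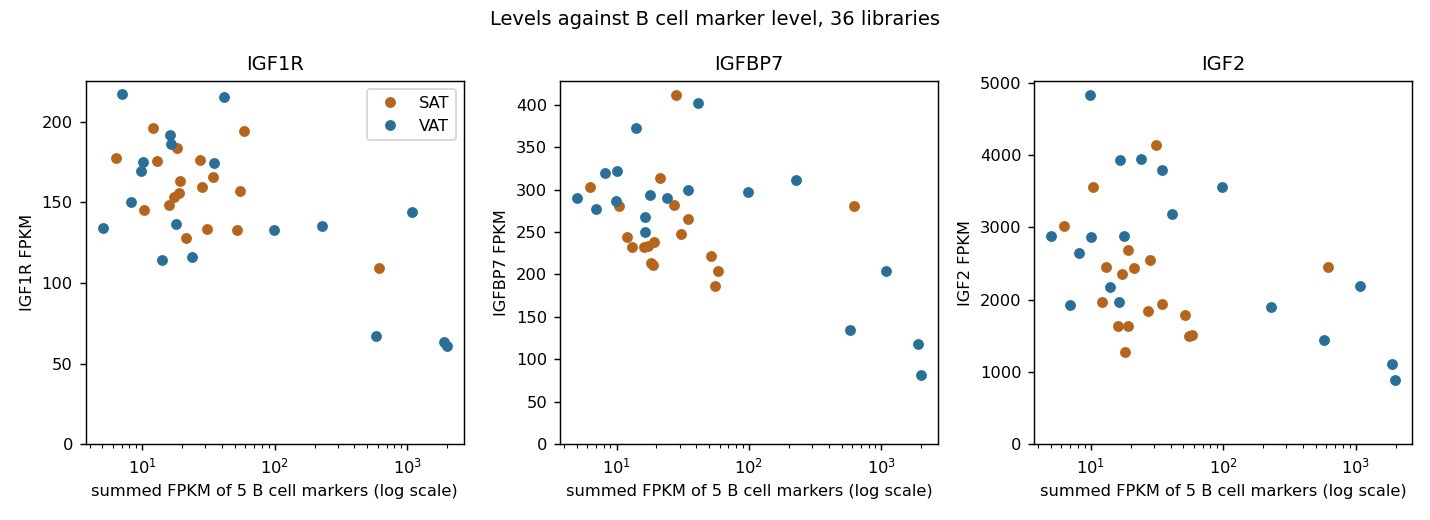
FPKM of IGF1R, IGFBP7 and IGF2 (y axes, linear) against the summed FPKM of 5 B cell markers (x axis, log scale), with 1 point per library, brown for SATs and blue for VATs. The 6 libraries at 228 or more on the x axis hold the lowest value of each of these members (IGF1R 60.7, IGFBP7 80.9 and IGF2 892 FPKM, all in OAT 1).

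Without those 6 libraries, 17 SAT and 13 VAT libraries were compared over 17475 gene models, of which 28.6% were called. IGF1 (-1.27, adjusted p = 0.000816) and PAPPA (-0.97, adjusted p = 0.0232) remained lower in SATs. IGF2 was now called lower in SATs (-0.49, 2255 against 3123 FPKM, adjusted p = 0.0205), and so was IGFBP7 (-0.28, 254 against 305 FPKM, adjusted p = 0.0180). In the same 30 libraries 6 of 11 adipocyte markers and 3 of 8 endothelial markers were called higher in VATs, and their part in the change of IGF2 and IGFBP7 was not tested. Among single depots 7 member differences were called in this set, 3 in BSAT, 1 in SSAT, 2 in PCAT and 1 in PRAT, beside 5.09%, 15.7%, 5.85% and 13.9% of gene models called in either direction. PRAT was higher in IGF2, and SSAT was lower in IGF1 (-0.82, adjusted p = 0.0383). In PCAT, IGFBP3 was lower (-0.88, adjusted p = 0.0481) and PAPPA higher. The 3 BSAT differences held, at -1.58 for IGF1, 1.23 for IGFBP3 and -1.32 for PAPPA.

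The balance of the ligands was taken as IGF2 FPKM per IGF1 FPKM in each library. Its median was 25.5 in BSAT, 19.6 in SSAT, 13.7 in IAT, 9.28 in OAT, 8.22 in PCAT and 11.4 in PRAT. The ratio lay between 9.11 and 67.1 in SATs and between 4.72 and 31.6 in VATs, so the classes overlapped. The share of IGF2 in the summed ligand FPKM was 94.6% ± 2.26 for SATs and 90.1% ± 4.12 for VATs (SD, n = 18 each). With SAT and VAT means paired by animal the share was 4.45 points higher in SATs (SD 2.92, higher in 5 of 6 animals), and the exact two-sided permutation test over 6 animals gave p = 0.0625, or 0.375 adjusted over 6 shares. The smallest p this design can give is 0.03125, and a single share adjusted over 6 cannot go below 0.1875, so no share could be called alone. Without the pairing, a permutation of 18 against 18 libraries gave p = 0.00027 (0.00162 adjusted). That permutation treats the libraries of 1 animal as independent, so its p does not measure the spread between animals.

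**Figure D5:**
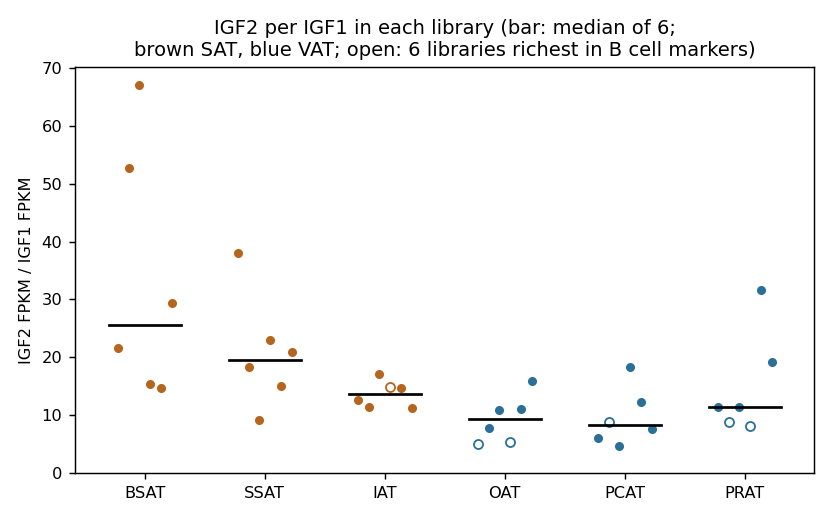
Ratio of IGF2 FPKM to IGF1 FPKM (y axis, linear) in the 6 depots (x axis), with 1 point per library, bars for the median of 6, brown for SATs, blue for VATs and open circles for the libraries richest in B cell markers. The medians of the SAT depots (13.7 to 25.5) lie above those of the VAT depots (8.22 to 11.4), with overlapping points.

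The shares of the binding protein pool were compared in the same way. IGFBP5 held most of the summed FPKM of IGFBP2, IGFBP3, IGFBP4, IGFBP5 and IGFBP7, with a median share of 87.5% in SATs (53.8% to 93.3%) and 87.8% in VATs (63.7% to 94.6%). The median summed level was 3603 FPKM in BSAT, 2396 in SSAT, 3406 in IAT, 2161 in OAT, 4459 in PCAT and 3125 in PRAT. IGFBP3 was 5.73% of the sum in BSAT by the median and 1.45% in PCAT. The exact paired permutation p for the 5 binding protein shares lay between 0.344 for IGFBP4 and 0.875 for IGFBP7. IGFBP6 is missing from these sums.

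Females and males were compared on the mean log2 value of each animal over its 6 depots, with 3 animals per sex. No gene model was called (0%, with 478 of 17688 at an unadjusted p under 0.05 in limma), and the adjusted p of every member was 1.00. IGF1 was 162 ± 68.8 FPKM in females and 236 ± 156 FPKM in males (SD over 18 libraries of 3 animals), a log2 difference of -0.34 with a 95% interval of -0.75 to 0.07. The difference was 0.27 for IGF1R (-0.03 to 0.57), 0.47 for IGFBP5 (-0.01 to 0.96) and -0.52 for PAPPA (-1.25 to 0.21). The intervals do not show that the sexes are alike.

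Other genes of the pathway were read from lists chosen by function. Among 12 tested genes for other IGF binding, release and clearance, 2 were higher in SATs and 1 in VATs, with a median difference of -0.05. Of all gene models 7.90% were higher in SATs and 22.1% in VATs. PAPPA2, a relative of PAPPA that cuts IGFBP3 and IGFBP5, averaged 12.4 FPKM in SATs (SD 16.9, n = 18) and 0.71 FPKM in VATs (SD 1.04, n = 18), a log2 difference of 3.86 (SE 0.65, adjusted p = 6.39e-05). Its depot means were 4.45 FPKM in BSAT, 11.5 in SSAT, 21.4 in IAT, 1.50 in OAT, 0.53 in PCAT and 0.09 in PRAT. The 2 related proteases thus had opposite orders between the classes, with PAPPA2 higher and PAPPA lower in SATs. HTRA1, a secreted serine protease that can cut IGFBP5, averaged 730 FPKM in SATs and 338 FPKM in VATs (difference 1.16, SE 0.18, adjusted p = 2.94e-05).

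ADAM12, which cuts IGFBP3 and IGFBP5, was higher in VATs (15.2 against 31.2 FPKM, difference -0.90, adjusted p = 0.0312), a call not kept under quantile normalization (-0.77, adjusted p = 0.0800). IGF2R, which clears IGF2 from the cell surface without signalling as IGF1R does, averaged 416 FPKM, more than IGF1R. It differed by -0.04 between the classes (adjusted p = 0.717). STC1 (296 FPKM) and STC2 (1.50 FPKM), stanniocalcins that inhibit PAPPA, differed by -0.06 and 0.94 and were not called. IGFBP1 and the growth hormone receptor GHR were matched to no row by symbol and were not analysed here.

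Of 8 tested genes of the growth hormone axis, VATs had the higher level in 3 (22.1% of all gene models did) and SATs in 0 (7.90%). They were the transcription factors STAT5A (-0.42, adjusted p = 0.00110) and STAT5B (-0.21, adjusted p = 0.00296) and the feedback inhibitor CISH (-0.65, adjusted p = 0.0151). Of 28 tested genes of IGF and insulin receptor signalling 13 were higher in VATs (22.1% of all gene models were) and 1 in SATs (7.90%). The median difference of the list was -0.21, beside -0.13 for all gene models. GRB14, an adaptor that inhibits the insulin receptor, had the largest difference of this list, at 0.13 FPKM in SATs (SD 0.18, n = 18) and 2.56 FPKM in VATs (SD 3.25, n = 18), a difference of -3.03 (SE 0.41, adjusted p = 3.38e-06). FOXO1, the transcription factor that insulin and IGF signalling holds out of the nucleus, differed by -0.47 (adjusted p = 0.000978), and the catalytic subunit PIK3CB by -0.49 (adjusted p = 0.00183).

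These small differences depended on the scaling. Under quantile normalization, which moved the median of all gene models from -0.13 to -0.02, the signalling list had 3 genes higher in VATs (GRB14, FOXO1 and PIK3CB) and 1 in SATs. The growth hormone list then had 1 gene in each direction, with STAT5A still higher in VATs. PAPPA2 (3.92) and HTRA1 (1.27) kept their direction and call, and so did IGF1 (-1.01), PAPPA (-1.03) and IGFBP4 (0.51).

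Likeness between genes was described by Pearson's r on the log2 scale over the 36 libraries, among 11123 symbols with a mean of at least 1 FPKM. These libraries share animals, depots and cell content, so r is a description with no test. IGFBP7 was most like STARD13 (0.90), ENOX1 (0.88) and GUCY1B1 (0.88), and IGF1R most like BAZ2B (0.90), TTC28 (0.89) and STARD9 (0.89). IGF2 was most like RALGAPA1 (0.80), GATA2 (0.79) and SYT7 (0.79), IGFBP4 most like CKAP4 (0.80), NUMBL (0.79) and CYP21 (0.76), and IGF1 most like PREPL (0.78), BEX3 (0.78) and DLK1 (0.76). For IGFBP3 they were RGS6 (0.71), HIC1 (0.65) and ENGASE (0.64), and for PAPPA they were KIF5A (0.71), RPRD1A (0.70) and COL13A1 (0.67). IGFBP5 was most like SLC16A9 (0.69), TSHZ1 (0.65) and PARD3 (0.63), and IGFBP2, the member with no close likeness, most like SH3YL1 (0.60), COLGALT1 (0.60) and TYRO3 (0.58).

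Among the members themselves r was highest for IGF2 and IGFBP7 (0.68), IGF1R and IGFBP7 (0.64) and IGF1R and IGFBP5 (0.62). The medians of these members were lower in the libraries rich in B cell markers, and so were those of IGFBP2, IGFBP3 and IGFBP4. The part of this in the correlations was not tested. The lowest r was that of IGFBP3 and PAPPA (-0.55), the carrier that was highest and the protease that was lowest in back fat. IGFBP5 and PAPPA (-0.41) and IGF1 and IGFBP3 (-0.38) followed.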

How the data were processed

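RNA sequencing of 36 adipose libraries (6 depots of 6 buffaloes) was analysed from 1 table of FPKM, grouped by the sample labels. The FPKM values were made and deposited by the authors, who filtered reads with Fastp, aligned them with HISAT2 2.2.1 and quantified gene models with StringTie 2.1.4 on an unpublished river buffalo assembly. The labels name a TruSeq RNA kit and the paper describes rRNA depletion. Neither states how reads were assigned by strand, so overlapping and antisense transcripts may add to a gene's value. StringTie FPKM are coverage estimates and the table gives no counts, so no interval from counts was possible. Columns of no sample numbered 0.

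A member was read at the gene model with its symbol. The members and gene lists were chosen with earlier results of these data known. Values were taken as log2(FPKM + 0.1), gene models with a mean above 0.1 FPKM (17688) were tested with limma 3.58.1 (R 4.3.3, moderated variances with a trend on mean level), and p was adjusted by Benjamini and Hochberg over all of them at a threshold of 0.05. A fold change on this scale understates the change of low genes such as PAPPA. The animal was not a term of these fits. Fits of depots shared 1 estimate of the spread over all 36 libraries. The scripts were tested on simulated data. Shares were tested by exact permutation within animals with Python 3.11.15, numpy 2.4.6, pandas 2.3.3 and matplotlib 3.10.9.

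Libraries with the same number came from the same animal, as their titles state, and after removing depot means their average correlation was 0.22, against -0.04 between animals. No library was a duplicate (pairwise correlations of at most 0.988). Members are all named. Genes most like a member are the 3 symbols of highest r, and up to 6 genes per pathway list are named by smallest adjusted p, with IGF2R, STC1 and STC2 added after their values were seen. The values of 1 gene of the signalling list are not reported here, though the counts of that list include it. Alternatives covered the pseudocount, the filter, TPM scaling, quantile normalization, leaving out each animal and terms for the animal. Leaving out the 6 libraries rich in B cell markers or BSAT 1 was chosen after seeing the data.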

Additional observations from a re-analysis of the deposited data

Results flagged for a closer look

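Among 54 groups of 6 libraries, 1 for each member and depot, 2 held a value far from the others on the log2(FPKM + 0.1) scale, and chance alone gives about 1 in 20. IGFBP2 in SSAT 3 was 0.42 FPKM, with the nearest SSAT library at 1.86 FPKM, a gap of 0.68 of the whole range of that depot on the log2 scale. PAPPA in PRAT 2 was 10.3 FPKM, with the nearest PRAT library at 3.50 FPKM, a gap of 0.69 of the range on the log2 scale. PRAT 2 is among the 6 libraries rich in B cell markers. The IGFBP2 value in SSAT 3 is the lowest of all 9 members in all 36 libraries.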

How the results depend on the processing

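IGF1 and PAPPA in SATs against VATs kept their direction and their side of the threshold in all 18 alternatives, with adjusted p of at most 0.00473 and 0.0248, and IGF1 in BSAT did so in all 16 (at most 0.0190). The 3 members called across the 6 depots stayed 3, or became 4 without the libraries rich in B cell markers. The count of member calls of single depots was less stable: 4 in all libraries, 1 to 5 when an animal was left out and 7 without the B cell marker-rich libraries, and the cause was not tested. Pairs of depots gave 9 to 12 calls when an animal was left out.

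Members near 0 changed sign between SATs and VATs. IGFBP2 (-0.15 in all libraries) ranged from -0.40 to 0.0892 when an animal was left out, with 0.0892 without animal 1 and 0.0346 without animal 3. IGFBP5 (0.01) was -0.0280 with TPM scaling, -0.0263 with quantile normalization, -0.19 without the B cell marker-rich libraries and -0.0204 without BSAT 1. It ranged from -0.0987 (without animal 2) to 0.20 (without animal 4), with -0.0973 and -0.0237 without animals 3 and 5. IGFBP7 (0.01) was -0.0339 with TPM scaling and -0.28 without the B cell marker-rich libraries. It ranged from -0.107 (without animal 1) to 0.12 (without animal 3), with -0.0909 and -0.0298 without animals 2 and 4.

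Of all gene models 5306 were called between SATs and VATs, and 3517 to 4922 when an animal was left out, with 3517 without animal 1. SATs had the higher level in 26.3% of calls, and in 55.0% under quantile normalization, where 3619 gene models were called.

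With the animal as a replicate block, as a fixed or random term, no member call was lost (IGF1 in SATs against VATs: adjusted p = 0.00049 and 0.000254). Calls of single depots rose from 4 to 6 with either term, and calls of pairs from 12 to 13 and 15, where the random term added PAPPA between BSAT and SSAT (adjusted p = 0.0486) and IGFBP4 between SSAT and PRAT (0.0491). With paired class means IGFBP4 was lost and IGFBP3 gained. Without the pairing by animal 1 of the 6 shares was called, in a permutation that treats the libraries of 1 animal as independent. With the pairing a single share could not be called (smallest adjusted p 0.1875), so the lack of calls there was close to fixed by the design. The alternative of other rows of a symbol was not run because each member had 1 row. FPKM carry no counts, so low members such as IGFBP2 and PAPPA have an unknown counting error, and 6 animals limit the precision.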
